A study of Mus musculus with 10 samples.

Results

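Cells need zinc and iron but are harmed by an excess of either, so a set of binding proteins and transporters holds free metal low. Ferritin stores iron, metallothioneins buffer zinc, and infection or endotoxin is known to shift both metals out of the circulation and into cells. The genes described here are 10 such genes, taken by symbol from the deposited gene count table: Mt1, Mt2, Slc39a14, Slc30a1, Slc11a1, Slc11a2, Slc40a1, Fth1, Ftl1 and Tfrc. Each matched exactly 1 of the 54532 genes in the table, and all 10 passed the filter on low counts that left 17139 genes for testing.

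The data are RNA sequencing counts from whole lung of wild-type (WT) mice in 3 groups. The LPS+TSLP group (n = 4 libraries) received recombinant thymic stromal lymphopoietin (TSLP), an epithelial cytokine, before lipopolysaccharide (LPS), a bacterial cell wall component that triggers innate immunity. The LPS group (n = 3) received LPS without TSLP, and the Vehicle group (n = 3) received neither. Strain, age, dose, route and time point are not given in the sources used here, and whether each library is a separate mouse is not stated, so p-values measure only the spread between these samples, which may be technical.

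Total counts per library ran from 16175172 to 18374461. LPS+TSLP replicate 1 stood apart, with 13.1% of its counts from mitochondrial genes, against 1.11% to 6.5% in the other 9 libraries. LPS replicate 1 was the only library with a high level of the female-specific RNA Xist (206 CPM) and had no count of the Y-linked Ddx3y, which had 59.7 to 94.8 CPM in the other LPS+TSLP and LPS libraries and 6.03 to 11.4 CPM in Vehicle. Levels are CPM, read counts relative to library size, with library sizes scaled by the trimmed mean of M values (TMM). In whole lung, a change in the number of cells of a type and a change in RNA per cell cannot be told apart.

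After LPS, both ferritin chains, the metallothionein Mt1 and the phagosomal metal transporter Slc11a1 rose, and none of the 10 genes was called lower. Tfrc was called lower after a correction for GC content, given below. The 4 genes that rose compare with 14.2% of all genes tested that were called higher in LPS against Vehicle, and the 10 genes had a median log2 fold change of 0.35, beside 0.01 over all genes tested. In either direction 24.9% of all genes were called. In the same 4 genes every LPS library was higher than every Vehicle library, which held for 24.7% of all genes, and in 0 of the 10 was every LPS library lower, which held for 25.1%. A gene was called at an adjusted p under 0.05 in edgeR's quasi-likelihood test. When TSLP preceded LPS, only Ftl1 was called against Vehicle, where 14.2% of all genes were, and no gene of the table was called against LPS.

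**Figure D1:**
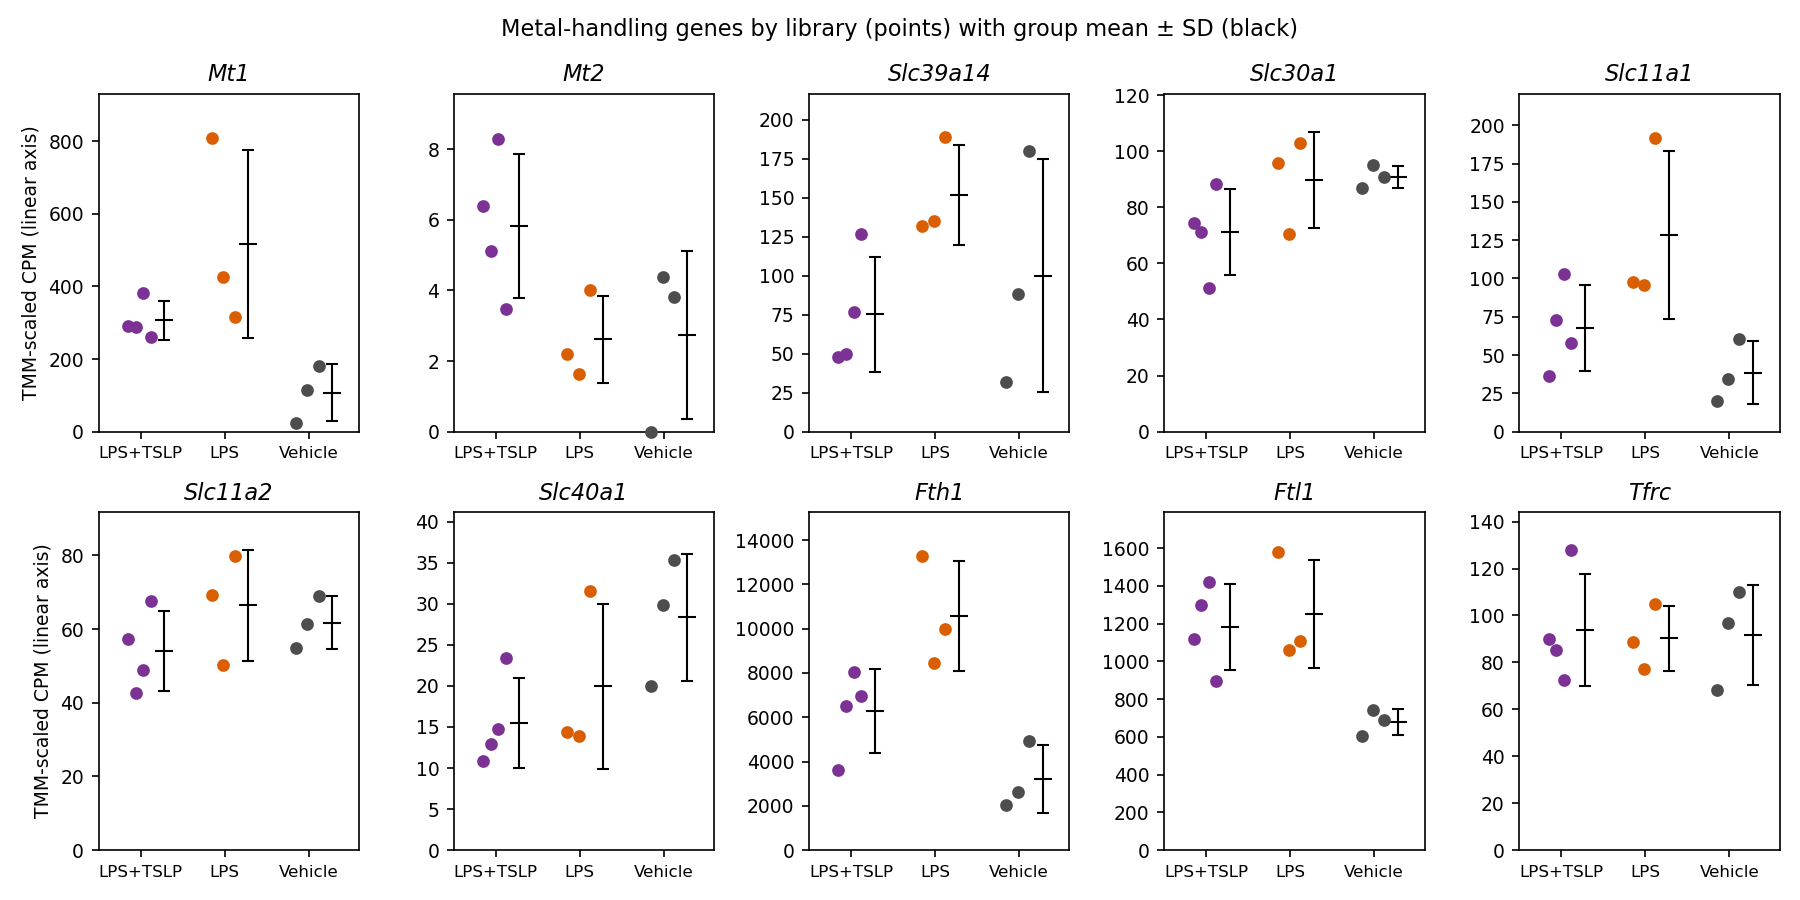
Level of each of the 10 genes in every library, in TMM-scaled CPM on a linear axis from 0. Points are libraries and black bars are the group mean ± SD (n = 4 LPS+TSLP, 3 LPS and 3 Vehicle); for Mt1, Slc11a1, Fth1 and Ftl1 every LPS library lies above every Vehicle library.

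Metallothioneins are small cysteine-rich proteins that bind zinc and copper. Their genes are switched on by the zinc-sensing factor MTF1, which binds metal response elements in the promoter, and also respond to glucocorticoids and cytokines. Mt1 (ENSMUSG00000031765) lies on chromosome 8, 94179082 to 94180327 of GRCm38, beside Mt2 (ENSMUSG00000031762, 94172664 to 94173568).

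Mt1 had 292, 289, 383 and 261 CPM in the LPS+TSLP libraries, 807, 426 and 315 CPM in the LPS libraries, and 23.8, 116 and 180 CPM in the Vehicle libraries. All treated libraries of both groups lay above all Vehicle libraries, while the LPS+TSLP and LPS groups overlapped. Against Vehicle, Mt1 rose 4.85-fold with LPS (log2 2.28, SE 0.58, edgeR adjusted p = 0.018). Its value for LPS+TSLP against Vehicle was log2 1.53 (SE 0.55, edgeR adjusted p = 0.081). Without Vehicle replicate 3 it was called (2.14, edgeR adjusted p = 0.042). With all libraries, the DESeq2 Wald test and limma-voom also called Mt1 in that comparison. The value for LPS+TSLP against LPS was −0.75 (95% interval −1.89 to 0.38, edgeR adjusted p = 0.75). The LPS call of Mt1 was lost without LPS replicate 1, the library with the highest level, at a log2 fold change of 1.8 (edgeR adjusted p = 0.07), and without Vehicle replicate 2, at 2.35 (edgeR adjusted p = 0.061).

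Mt2 could not be followed in the same way. It had 6.4, 5.12, 8.29 and 3.48 CPM in LPS+TSLP, 2.19, 1.64 and 4 CPM in LPS, and 0, 4.38 and 3.82 CPM in Vehicle. The groups overlapped in every comparison, and the level was a small fraction of that of Mt1 in every library. In the annotation, 73.5% of the exon bases of Mt2 are also covered by exons of Gm45774 on the opposite strand, and no source used here says whether the counting used strand. Where it did not, reads from the overlapping bases cannot be assigned to either gene. Gm45774 itself had 0.811 ± 0.593 CPM in LPS+TSLP (SD, n = 4), 0.821 ± 0.318 CPM in LPS (SD, n = 3) and 0.145 ± 0.167 CPM in Vehicle (SD, n = 3). Its part in the Mt2 counts was not tested. The log2 fold change of Mt2 for LPS against Vehicle was −0.07 with an interval from −2.09 to 1.95, and its sign changed under 8 of 22 alternative settings.

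The promoter windows of Mt1, Mt2 and the zinc exporter gene Slc30a1 are shown because all 3 are known targets of MTF1. In the edgeR fit of all libraries, Mt1 was called in LPS against Vehicle alone. Slc30a1 was not called in any comparison, nor was Mt2, whose counts are uncertain as described above. The sequences run 250 bases before to 50 after a transcript start, from RefSeq on GRCm38.p6, 5′ to 3′ on the gene's strand. Capitals mark matches to the metal response element core, TGCACNC or TGCGCNC, on either strand.
Mt1, chr8:94178839-94179138, plus strand: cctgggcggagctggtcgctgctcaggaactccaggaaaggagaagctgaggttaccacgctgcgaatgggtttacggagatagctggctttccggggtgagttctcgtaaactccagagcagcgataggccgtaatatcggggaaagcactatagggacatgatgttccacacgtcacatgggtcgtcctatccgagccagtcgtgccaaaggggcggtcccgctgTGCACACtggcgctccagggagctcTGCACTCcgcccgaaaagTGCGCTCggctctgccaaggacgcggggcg
Mt2, chr8:94172368-94172667, plus strand: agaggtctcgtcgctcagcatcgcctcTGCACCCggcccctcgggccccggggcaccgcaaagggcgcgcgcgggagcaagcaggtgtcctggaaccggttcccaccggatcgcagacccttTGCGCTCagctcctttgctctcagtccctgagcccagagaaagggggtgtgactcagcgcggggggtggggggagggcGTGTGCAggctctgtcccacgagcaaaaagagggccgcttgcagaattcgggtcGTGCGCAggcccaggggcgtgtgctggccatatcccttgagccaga
Slc30a1, chr1:191906531-191906830, plus strand: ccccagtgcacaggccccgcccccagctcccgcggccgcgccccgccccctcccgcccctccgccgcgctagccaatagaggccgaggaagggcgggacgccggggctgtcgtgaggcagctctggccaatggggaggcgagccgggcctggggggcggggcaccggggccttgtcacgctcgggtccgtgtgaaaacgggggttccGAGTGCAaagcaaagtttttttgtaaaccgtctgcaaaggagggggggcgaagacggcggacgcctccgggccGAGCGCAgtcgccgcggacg

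The Mt1 window held 3 core matches, the Mt2 window 4 and the Slc30a1 window 2. Of 32851 promoter windows of the same length, 25.7% held at least 1 match, 1.97% held at least 3, 0.517% at least 4 and 7.11% at least 2. Further annotated starts, of Mt1 at 94179211 and 94179241 and of Mt2 at 94172860, lie downstream of the windows shown. The windows of Slc11a1, Fth1 and Ftl1 held 0 matches, as did 1 of the 2 windows of Tfrc, the other holding 2 that overlap. These matches are letters in a window and were not tested as binding sites. Slc39a14, Slc11a2 and Slc40a1 had no matching promoter window.

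Slc30a1 (ZnT1) carries zinc out of the cell across the plasma membrane. It had 74.5, 71.1, 51.3 and 88.4 CPM in LPS+TSLP, 95.7, 70.3 and 103 CPM in LPS, and 86.9, 94.9 and 90.8 CPM in Vehicle. The groups overlapped throughout, and the log2 fold change for LPS against Vehicle was −0.02 (95% interval −0.5 to 0.46, edgeR adjusted p = 0.95). Changes of Slc30a1 inside that interval remain possible with these libraries. For LPS+TSLP it was −0.35 against Vehicle (edgeR adjusted p = 0.26) and −0.33 against LPS (edgeR adjusted p = 0.72).

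Slc39a14 (ZIP14) brings zinc, and iron not bound to transferrin, into the cytosol, and is known in mouse liver as an importer induced during inflammation. It had 47.7, 49.6, 76.8 and 127 CPM in LPS+TSLP, 132, 135 and 189 CPM in LPS, and 32, 88.2 and 180 CPM in Vehicle. All 4 LPS+TSLP libraries lay below all 3 LPS libraries, but the Vehicle libraries spanned nearly the range of all treated ones. The log2 fold change was −1.01 for LPS+TSLP against LPS (SE 0.49, edgeR adjusted p = 0.64) and 0.6 for LPS against Vehicle (SE 0.53, edgeR adjusted p = 0.42). Without Vehicle replicate 3, the Vehicle library with the highest level, the value for LPS+TSLP against Vehicle was 0.32, against −0.41 in all libraries. The value for LPS against Vehicle was 1.35 without that library (edgeR adjusted p = 0.075) and 0.18 without Vehicle replicate 1 (edgeR adjusted p = 0.81).

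Ferritin is a hollow shell of heavy and light chains that stores iron. The heavy chain, Fth1 (ENSMUSG00000024661, chromosome 19, 9980598 to 9985098), oxidises iron on entry, and the light chain, Ftl1 (ENSMUSG00000050708, chromosome 7, 45457944 to 45459884), helps to form the mineral core. Translation of both is held back by iron regulatory proteins that bind an iron-responsive element in the 5′ untranslated region. The same proteins stabilise the transferrin receptor mRNA (Tfrc) through elements in its 3′ untranslated region, so the elements below are shown as the feature that links stored, imported and exported iron in this gene set. Capitals mark the 6-base loop, and each sequence runs 5′ to 3′ on the transcript strand of GENCODE M21 (GRCm38).
Fth1, 5′ UTR, chr19:9982732-9982760: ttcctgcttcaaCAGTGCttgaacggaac
Ftl1, 5′ UTR, chr7:45459779-45459807: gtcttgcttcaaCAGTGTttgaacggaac
Slc40a1, 5′ UTR, chr1:45925465-45925493: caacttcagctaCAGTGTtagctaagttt
Tfrc, 3′ UTR, chr16:32631219-32631247: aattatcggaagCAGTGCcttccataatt
Tfrc, 3′ UTR, chr16:32631598-32631626: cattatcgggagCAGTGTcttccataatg
Tfrc, 3′ UTR, chr16:32631663-32631691: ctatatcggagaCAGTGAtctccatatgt
Tfrc, 3′ UTR, chr16:32631710-32631738: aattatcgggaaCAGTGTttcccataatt

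The search took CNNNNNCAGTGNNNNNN on the transcript strand, with the 5 bases on each side of the loop able to pair (G with T allowed). Matches in a 5′ untranslated region were found in 31 of 21901 protein-coding genes (0.142%), and matches in a 3′ untranslated region in 129 (0.589%). No protein-coding transcript of the other 6 genes held the pattern, including those of Slc11a2. The search allowed no unpaired base within the 5 pairs, so elements of another shape would be missed. The lack of a match therefore does not show that Slc11a2 or another gene lacks an element. A match is a description of the letters, and binding was not measured.

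Fth1 had 3610, 6500, 8060 and 6960 CPM in LPS+TSLP, 13300, 8470 and 9980 CPM in LPS, and 2040, 2630 and 4940 CPM in Vehicle. Every LPS library was above every library of the other groups, and LPS+TSLP overlapped Vehicle through LPS+TSLP replicate 1 alone. Fth1 rose 3.31-fold with LPS against Vehicle (log2 1.73, SE 0.4, edgeR adjusted p = 0.013). With TSLP before LPS the value was log2 0.97 against Vehicle (SE 0.38, edgeR adjusted p = 0.1). It was −0.75 against LPS (SE 0.37, 95% interval −1.56 to 0.05, edgeR adjusted p = 0.64). Fth1 was called in LPS+TSLP against Vehicle without LPS+TSLP replicate 1 (log2 1.16, edgeR adjusted p = 0.039) or without Vehicle replicate 3 (1.42, edgeR adjusted p = 0.04). With all libraries, the DESeq2 Wald test called Fth1 in that comparison, and limma-voom did not. Without LPS+TSLP replicate 1 its value against LPS was −0.58 (edgeR adjusted p = 0.57).

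Fth1 mRNA was among the most abundant in the lung. It took 0.349% to 0.822% of all counts in LPS+TSLP, 0.854% to 1.23% in LPS and 0.207% to 0.513% in Vehicle. Per kilobase of its principal transcript, its level was 4200 ± 1270 CPM per kilobase in LPS+TSLP (SD, n = 4), 7090 ± 1670 in LPS (SD, n = 3) and 2140 ± 1030 in Vehicle (SD, n = 3). On that scale it ranked between 6 and 16 of 14663 protein-coding genes in LPS+TSLP, between 3 and 6 in LPS and between 4 and 18 in Vehicle.

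Ftl1 had 1120, 1300, 1420 and 896 CPM in LPS+TSLP, 1580, 1060 and 1110 CPM in LPS, and 605, 743 and 689 CPM in Vehicle. All 7 treated libraries lay above all 3 Vehicle libraries, and the LPS+TSLP and LPS groups overlapped. It rose with LPS against Vehicle by log2 0.88 (SE 0.25, edgeR adjusted p = 0.027). It rose with LPS+TSLP against Vehicle by log2 0.8 (SE 0.24, edgeR adjusted p = 0.045), where 8.82% of all genes tested were called higher. Between LPS+TSLP and LPS the value was −0.08 (95% interval −0.59 to 0.43, edgeR adjusted p = 0.95). Both comparisons with Vehicle use the same 3 Vehicle libraries. The level of Ftl1 is uncertain, because 58.4% of the 50-base stretches of its transcripts occur in other annotated genes. One of them, the pseudogene Ftl1-ps1, had 21.9 ± 3.62 CPM in LPS+TSLP (SD, n = 4) and 24.4 ± 8.2 CPM in LPS (SD, n = 3), against 12.9 ± 1.34 CPM in Vehicle (SD, n = 3), and was called higher with LPS against Vehicle as well (log2 0.92, edgeR adjusted p = 0.025).

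The ferritin calls were sensitive to which Vehicle libraries were included. So were calls over all genes in LPS against Vehicle, which fell from 4273 to 1661 without Vehicle replicate 1. In LPS against Vehicle, Fth1 was not called without Vehicle replicate 1 (log2 1.49, edgeR adjusted p = 0.059) or Vehicle replicate 2 (1.6, edgeR adjusted p = 0.061). Ftl1 was not called without any 1 of the 3 Vehicle libraries or LPS replicate 1, with values from 0.68 to 0.95. In LPS+TSLP against Vehicle, Ftl1 was called without LPS replicate 1, LPS+TSLP replicate 1 or LPS+TSLP replicate 4, and not called without any 1 of the other 7 libraries.

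**Figure D2:**
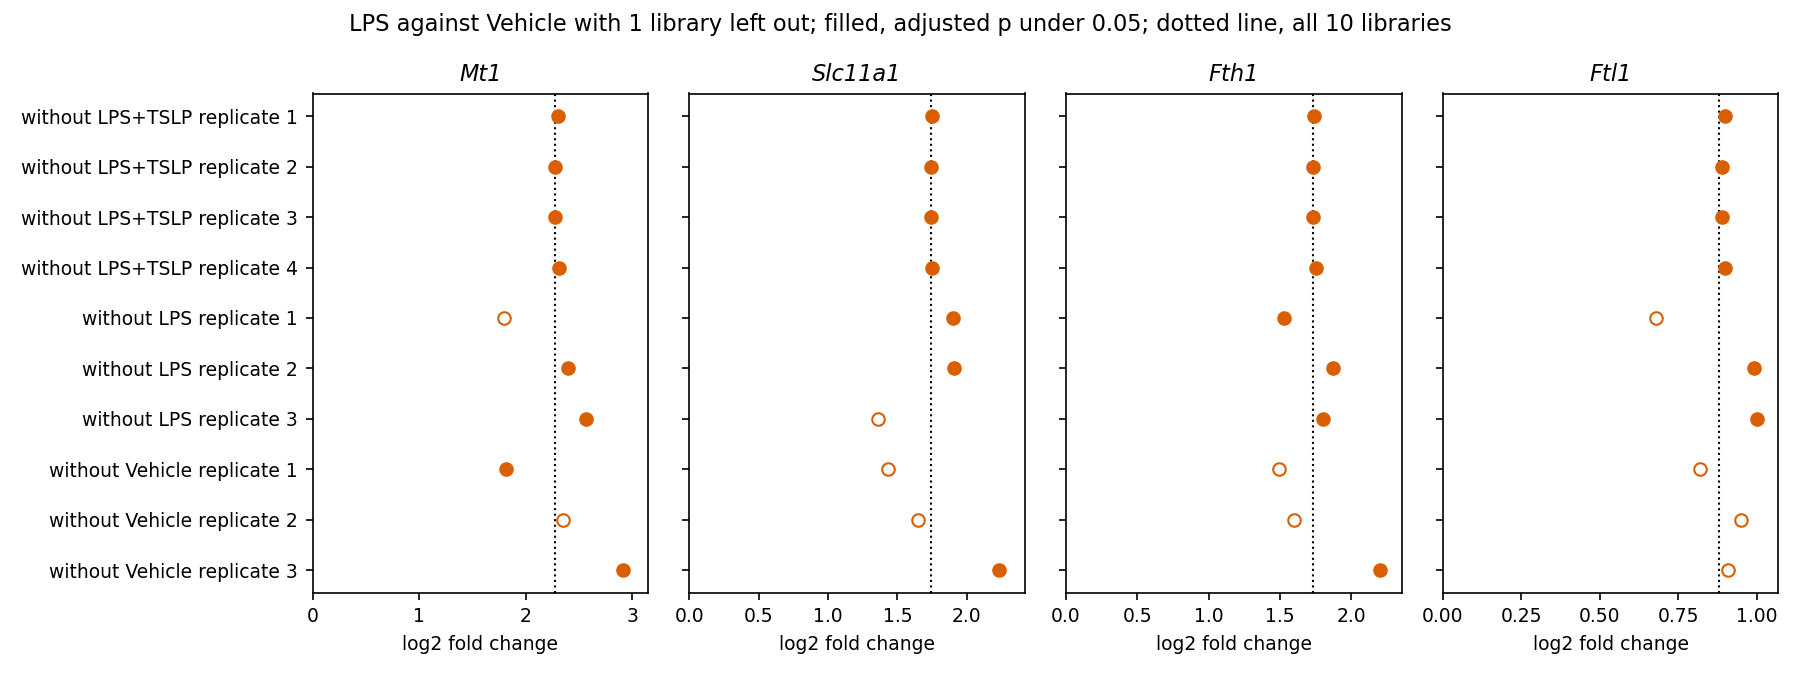
Log2 fold change of the 4 called genes for LPS against Vehicle when 1 library is left out (rows), with filled points where the edgeR adjusted p stays under 0.05 and a dotted line at the value from all 10 libraries. Every value stays above 0, between 0.68 (Ftl1) and 2.91 (Mt1), and open points mark the libraries without which a gene is not called.

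Slc11a1 (NRAMP1) is a metal transporter of the phagosome membrane in macrophages and neutrophils, and in mice it is known as a resistance gene for intracellular bacteria. Slc11a1 (ENSMUSG00000026177, chromosome 1, 74375195 to 74386062) had 36.3, 73.1, 103 and 58.2 CPM in LPS+TSLP, 97.8, 95.6 and 192 CPM in LPS, and 20.2, 34.6 and 60.8 CPM in Vehicle. The LPS and Vehicle libraries did not overlap, while LPS+TSLP overlapped both. It rose 3.33-fold with LPS against Vehicle (log2 1.74, SE 0.46, edgeR adjusted p = 0.02), and was not called without Vehicle replicate 1 (1.43), Vehicle replicate 2 (1.65) or LPS replicate 3 (1.36). For LPS+TSLP against LPS its log2 fold change was −0.92 (SE 0.42), with an unadjusted p of 0.047 in edgeR, the only 1 of the 10 genes under 0.05, where 8.1% of all genes tested were; its edgeR adjusted p = 0.61.

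Neutrophil markers are given beside these levels. The summed level of 8 of 8 listed neutrophil markers was 128 to 1060 CPM in LPS+TSLP, 1560 to 1990 CPM in LPS and 321 to 1040 CPM in Vehicle, and 2 of the 8 were called higher in LPS against Vehicle, where 14.2% of all genes were. None of the 8 was called by edgeR in LPS+TSLP against LPS. The listed markers S100a8 and S100a9 averaged 202 and 218 CPM in LPS+TSLP, 554 and 663 CPM in LPS, and 152 and 194 CPM in Vehicle. These genes, neither of them called, made up a large part of the sums in LPS. The lowest sum, 128 CPM, was that of LPS+TSLP replicate 1, which also had the lowest Slc11a1 and Fth1 of its group. Sums of 8 monocyte and interstitial macrophage markers were 633 to 1030 CPM in LPS+TSLP, 912 to 1130 CPM in LPS and 600 to 863 CPM in Vehicle. Those of 8 alveolar macrophage markers were 361 to 1100 CPM in LPS+TSLP, 843 to 1270 CPM in LPS and 1010 to 1260 CPM in Vehicle. No listed marker of these 3 cell types was at 0 in every library. The part of cell numbers in the levels of Slc11a1 and Fth1 was not tested.

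Across the 10 libraries, the 5 protein-coding genes whose log2 CPM was most like that of Slc11a1 were Tlr6, Nfkb2, Tnfrsf8, Tnip1 and Irak3, with Pearson r from 0.975 to 0.983. Those most like Slc40a1 were Mettl4, Copb1, Fndc3b, Chrna7 and Sec24b (r from 0.948 to 0.969), and those most like Mt2 were Klk10, A2m, Lrrc39, Trp63 and Bcl3 (r from 0.878 to 0.889). These values describe 10 libraries in 3 groups, in which group, depth and scaling are shared, and were picked as the highest of 14662 genes. Mt2 itself was low and its counts are uncertain, as described above. Of the genes most like it, Lrrc39 averaged 0.722 CPM, Trp63 1.77, A2m 3.91 and Klk10 4.23, while Bcl3 averaged 79.1 CPM.

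Slc11a2 (DMT1) moves iron from endosomes, and from the gut lumen, into the cytosol. It had 57.2, 42.7, 48.9 and 67.6 CPM in LPS+TSLP, 69.3, 50.2 and 79.9 CPM in LPS, and 54.9, 61.4 and 69.1 CPM in Vehicle. All groups overlapped, with a log2 fold change of 0.11 for LPS against Vehicle (95% interval −0.39 to 0.6), −0.3 for LPS+TSLP against LPS (−0.76 to 0.17) and −0.19 for LPS+TSLP against Vehicle (−0.66 to 0.27).

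Tfrc, the transferrin receptor, takes up iron-loaded transferrin from blood. It had 89.9, 85.1, 72.4 and 128 CPM in LPS+TSLP, 88.7, 77.4 and 105 CPM in LPS, and 68.2, 96.6 and 110 CPM in Vehicle. The groups overlapped fully, with log2 fold changes of −0.02 for LPS against Vehicle (95% interval −0.57 to 0.53), 0.05 for LPS+TSLP against LPS (−0.46 to 0.56) and 0.03 for LPS+TSLP against Vehicle (−0.48 to 0.55). This depended on the processing: transcripts of Tfrc hold 39.4% G and C, the least of the 10 genes. Once each library's trend of counts with GC content was removed, Tfrc was called lower in LPS against Vehicle (log2 −1.36, edgeR adjusted p = 0.011) and in LPS+TSLP against Vehicle (−1.21, edgeR adjusted p = 0.023).

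Slc40a1 (ferroportin) is the only known iron exporter of mammalian cells and is degraded on binding the hormone hepcidin. It had 10.8, 12.9, 14.8 and 23.4 CPM in LPS+TSLP, 14.4, 13.9 and 31.5 CPM in LPS, and 20, 29.8 and 35.3 CPM in Vehicle. Each treated group overlapped Vehicle through its highest library alone, and the LPS+TSLP and LPS groups overlapped each other. Its log2 fold change was −0.87 for LPS+TSLP against Vehicle (SE 0.35, 95% interval −1.64 to −0.11, edgeR adjusted p = 0.11) and −0.51 for LPS against Vehicle (SE 0.38, edgeR adjusted p = 0.34). With the GC trend removed it was called lower in LPS+TSLP against Vehicle (−1.1, edgeR adjusted p = 0.049), and without LPS+TSLP replicate 4 as well (−1.1, edgeR adjusted p = 0.045).

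**Figure D3:**
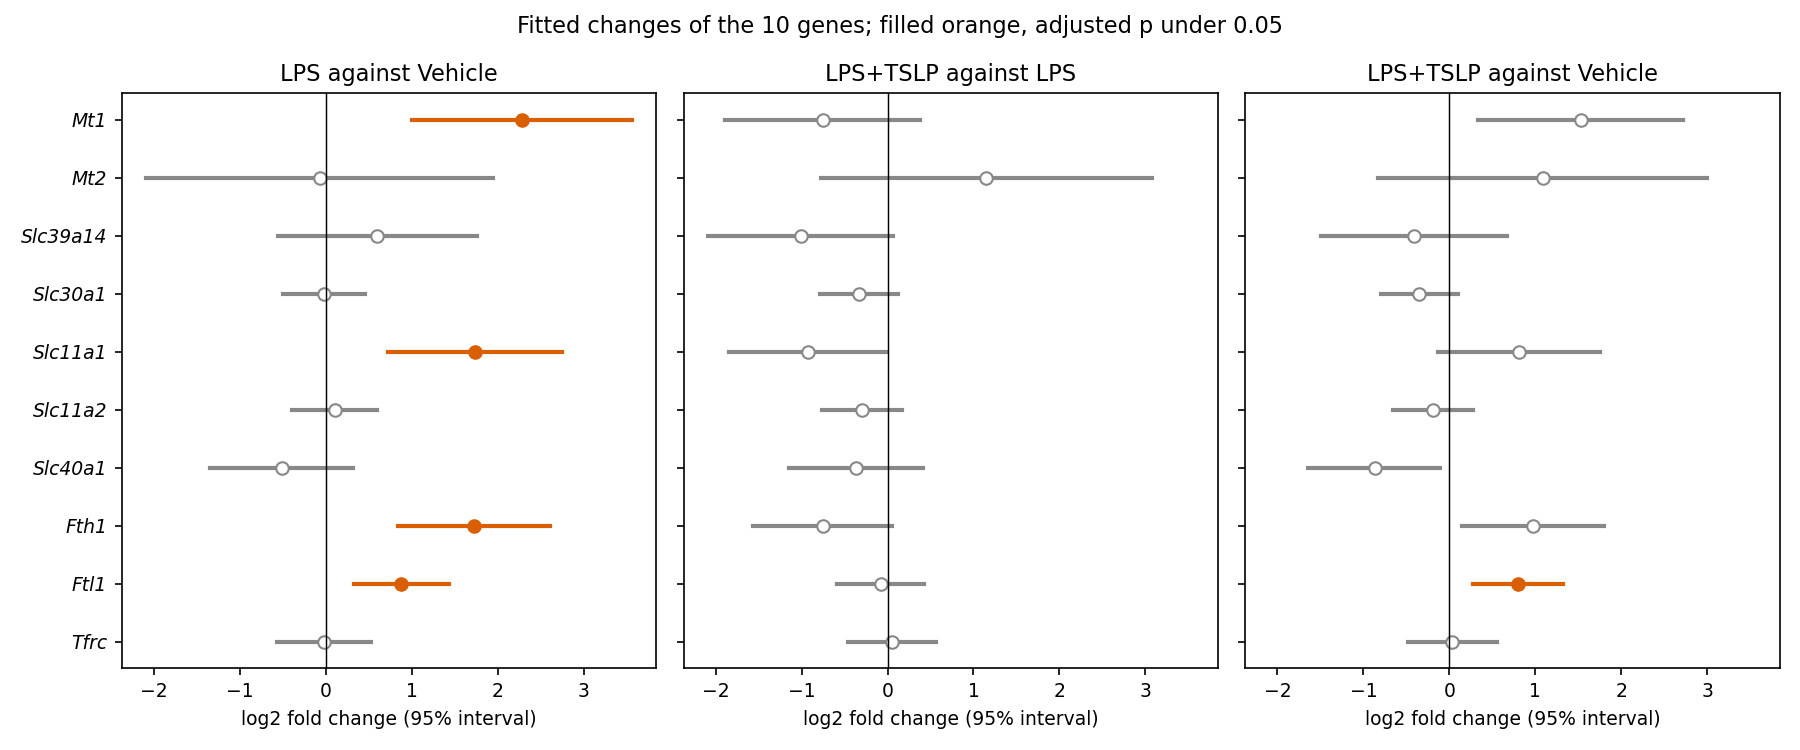
Fitted log2 fold change (first-named group over the second) of the 10 genes in the 3 comparisons, with 95% intervals as lines. Filled orange points are called at an edgeR adjusted p under 0.05: 4 genes for LPS against Vehicle, 0 for LPS+TSLP against LPS and 1, Ftl1, for LPS+TSLP against Vehicle.

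In LPS+TSLP against LPS, 8 of the 10 genes had a value below 0, and the median was −0.35, beside 0.02 over all genes tested. In Fth1 and Slc39a14 all 4 LPS+TSLP libraries lay below all 3 LPS libraries, a pattern found in 3.54% of all genes tested. In 0 of the 10 did all lie above, which held for 3.88%. In LPS+TSLP against Vehicle the treated libraries lay above all Vehicle libraries in 2 genes, Mt1 and Ftl1 (15.7% of all genes), and below in 0 (15.9%). There 4 of the 10 had an unadjusted edgeR p under 0.05, as had 33% of all genes. The percentage called in LPS+TSLP against LPS was 0: edgeR called 0 of 17139 genes there, with 1388 at an unadjusted p under 0.05, and the DESeq2 Wald test called 35, none of them among the 10. The intervals above show which sizes of change the libraries leave possible. Mt1 differed between LPS+TSLP and LPS by −0.75 with LPS replicate 1 and by −0.26 without it, and Fth1 by −0.75 and −0.55.

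A wider list of 65 zinc, iron and haem genes was examined beside the 10, of which 55 were tested. In LPS against Vehicle 9 rose, 7 fell and 39 were not called, with a median log2 fold change of 0.04, where 14.2% and 10.7% of all genes tested were called higher and lower. In LPS+TSLP against Vehicle 2 rose, 2 fell and 51 were not called (median 0), where 8.82% and 5.35% of all genes were. In LPS+TSLP against LPS 0 of 55 were called by edgeR, with a median of −0.09. An unadjusted edgeR p under 0.05 was found there for 6 of the 55, beside 8.1% of all genes tested. Of the 16 genes called in LPS against Vehicle, 11 were not called without Vehicle replicate 1 nor without Vehicle replicate 2, namely those named below other than Steap3, Heph, Ireb2, Fbxl5 and Slc39a5. Without LPS replicate 1, 11 of the 16 were not called, Slc39a5 among them. In LPS+TSLP against Vehicle, 3 of the 4 called genes, all but Ireb2, were not called without Vehicle replicate 1 or 2, and Fech and Steap2 also not without LPS+TSLP replicate 2 or 3.

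Of the other genes of iron uptake, the endosomal ferrireductase Steap3, which reduces transferrin iron before it leaves the endosome, fell in both treated groups. It had 22.1, 20.5, 21.9 and 22 CPM in LPS+TSLP, 14, 17.2 and 17.4 CPM in LPS, and 55.2, 52.1 and 29.9 CPM in Vehicle, so that no treated library reached the lowest Vehicle library. Its log2 fold change was −1.08 for LPS+TSLP (SE 0.21, edgeR adjusted p = 0.01) and −1.5 for LPS (SE 0.23, edgeR adjusted p = 0.003), each against Vehicle. The duodenal ferrireductase Cybrd1 fell in LPS against Vehicle (−1.45, edgeR adjusted p = 0.016), whereas the related metalloreductase Steap2 rose (1.34, edgeR adjusted p = 0.017). With the GC trend removed Steap2 was no longer called (0.52, edgeR adjusted p = 0.16). Transferrin (Trf) was at 1.3 (edgeR adjusted p = 0.087).

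Hephaestin (Heph), a ferroxidase that works with ferroportin in iron export, fell in LPS against Vehicle. It had 7.87, 8.63, 8.18 and 15.6 CPM in LPS+TSLP, 6.28, 8.75 and 6.05 CPM in LPS, and 25.9, 15.7 and 17.6 CPM in Vehicle. All 7 treated libraries lay below all 3 Vehicle libraries. The log2 fold change was −0.97 for LPS+TSLP (SE 0.3, edgeR adjusted p = 0.051) and −1.49 for LPS (SE 0.33, edgeR adjusted p = 0.01), each against Vehicle. The LPS calls of Heph and Steap3 held in all 22 alternative settings. Sums of 8 fibroblast markers were 3300 to 5120 CPM in LPS+TSLP, 2120 to 3480 CPM in LPS and 6370 to 7510 CPM in Vehicle, and those of 8 endothelial markers 2980 to 4300, 3720 to 3890 and 4800 to 6230 CPM. Their part in the falls of Heph, Steap3 and Bmp6 was not tested. Ceruloplasmin (Cp), a ferroxidase of plasma, was at 1.14 in LPS against Vehicle (edgeR adjusted p = 0.12). The ferritin receptor of autophagy, Ncoa4, was at −0.96 (edgeR adjusted p = 0.14), and the iron chaperones Pcbp1 and Pcbp2 were at 0.13 and −0.3 (edgeR adjusted p = 0.58 and 0.32).

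Among 7 tested genes of iron regulation, 2 rose and 2 fell in LPS against Vehicle, beside 14.2% and 10.7% of all genes called higher and lower. Ireb2, which encodes an iron regulatory protein, had 54.2, 79.7, 65.5 and 91.7 CPM in LPS+TSLP, 68.1, 71.4 and 92.1 CPM in LPS, and 18.6, 16.6 and 35.2 CPM in Vehicle. Every treated library lay above every Vehicle library, and Ireb2 rose by log2 1.63 with LPS+TSLP (edgeR adjusted p = 0.007) and 1.72 with LPS (edgeR adjusted p = 0.0047) against Vehicle. Fbxl5, the iron-sensing ubiquitin ligase subunit that marks this protein for degradation, rose with LPS by 1.33 (edgeR adjusted p = 0.01). Both rises were lost with the GC trend removed, at 0.23 for Ireb2 (edgeR adjusted p = 0.46) and 0.42 for Fbxl5 (edgeR adjusted p = 0.23) in LPS against Vehicle, and at 0.21 for Ireb2 in LPS+TSLP against Vehicle (edgeR adjusted p = 0.51). Bmp6, an inducer of hepcidin in the liver, fell with LPS (−1.26, edgeR adjusted p = 0.025), as did the hepcidin regulator Hfe (−0.66, edgeR adjusted p = 0.044). Both lost the call with the GC trend removed, at −0.98 and −0.61. Of 22 alternative settings, Bmp6 kept the call in 18 and Hfe in 10.

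Of 12 tested haem-handling genes, 5 rose and 1 fell in LPS against Vehicle, beside 14.2% called higher and 10.7% called lower over all genes. Haptoglobin (Hp), which binds free haemoglobin, had 1500, 2510, 2550 and 2490 CPM in LPS+TSLP, 4390, 2870 and 2610 CPM in LPS, and 706, 1540 and 1590 CPM in Vehicle. It rose with LPS against Vehicle by 1.36 (SE 0.36, edgeR adjusted p = 0.02) and was at −0.54 in LPS+TSLP against LPS (edgeR adjusted p = 0.72), with every LPS+TSLP library below every LPS library. Haem oxygenase 1 (Hmox1), which breaks haem down and frees its iron, rose by 1.26 at an edgeR adjusted p that rounds to 0.05, and kept the call in 11 of 22 alternative settings. The biliverdin reductases Blvrb (0.87, edgeR adjusted p = 0.023) and Blvra (0.59, edgeR adjusted p = 0.035) and the haem exporter Flvcr1 (0.77, edgeR adjusted p = 0.034) also rose, Flvcr1 losing its call with the GC trend removed (0.35, edgeR adjusted p = 0.23). Fech, which inserts iron into haem, fell with LPS+TSLP (−0.76, edgeR adjusted p = 0.032) and with LPS (−0.78, edgeR adjusted p = 0.025), each against Vehicle. The haptoglobin-haemoglobin receptor Cd163 was at −2.09 in LPS+TSLP (edgeR adjusted p = 0.062) and −2.2 in LPS (edgeR adjusted p = 0.053), each against Vehicle. Erythroid marker sums, over 7 listed genes found by symbol, were 642 to 2410 CPM in LPS+TSLP, 1580 to 5270 CPM in LPS and 1970 to 3250 CPM in Vehicle, and their part in these levels was not tested.

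Among 13 tested importers of the SLC39 family, Slc39a5 rose and Slc39a3 fell in LPS against Vehicle, and 11 were not called, beside 24.9% of all genes called in either direction. Slc39a5 was a rare transcript, at 1.49 CPM in LPS+TSLP, 2.94 CPM in LPS and 0.433 CPM in Vehicle on average (log2 2.74 for LPS against Vehicle, edgeR adjusted p = 0.016). Slc39a3 was at −0.66 (edgeR adjusted p = 0.04), and at −0.34 (edgeR adjusted p = 0.27) with the GC trend removed. None of 7 tested exporters of the SLC30 family was called in any comparison by edgeR, with 1 at an unadjusted p under 0.05 in LPS against Vehicle, where 39.6% of all genes were. The zinc sensor Mtf1 was at −0.38 in LPS against Vehicle (edgeR adjusted p = 0.39). Slc39a8, an importer of zinc and manganese, had 37.4, 361, 356 and 661 CPM in LPS+TSLP, 588, 517 and 745 CPM in LPS, and 261, 256 and 360 CPM in Vehicle. The lowest level was that of LPS+TSLP replicate 1. Every LPS library lay above every Vehicle library, which held for 24.7% of all genes. The log2 fold change for LPS against Vehicle was 1.08 (edgeR adjusted p = 0.25).

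Proteins that neutrophils and epithelium secrete to bind metal away from bacteria were not called. Lipocalin 2 (Lcn2), which captures bacterial siderophores, had 1090, 5250, 5080 and 4880 CPM in LPS+TSLP, 11100, 6070 and 5750 CPM in LPS, and 152, 1150 and 2870 CPM in Vehicle. The Vehicle libraries differed widely, at 1390 ± 1380 CPM (SD, n = 3), and the log2 fold change for LPS against Vehicle was 2.46 (95% interval 0.59 to 4.33, edgeR adjusted p = 0.055). The calprotectin subunits S100a8 and S100a9 were at 1.86 and 1.77 for LPS against Vehicle (edgeR adjusted p = 0.069 and 0.063) and at −1.46 and −1.6 for LPS+TSLP against LPS (edgeR adjusted p = 0.6 and 0.59). Lactoferrin (Ltf) was at −0.9 for LPS against Vehicle (edgeR adjusted p = 0.59).

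**Figure D4:**
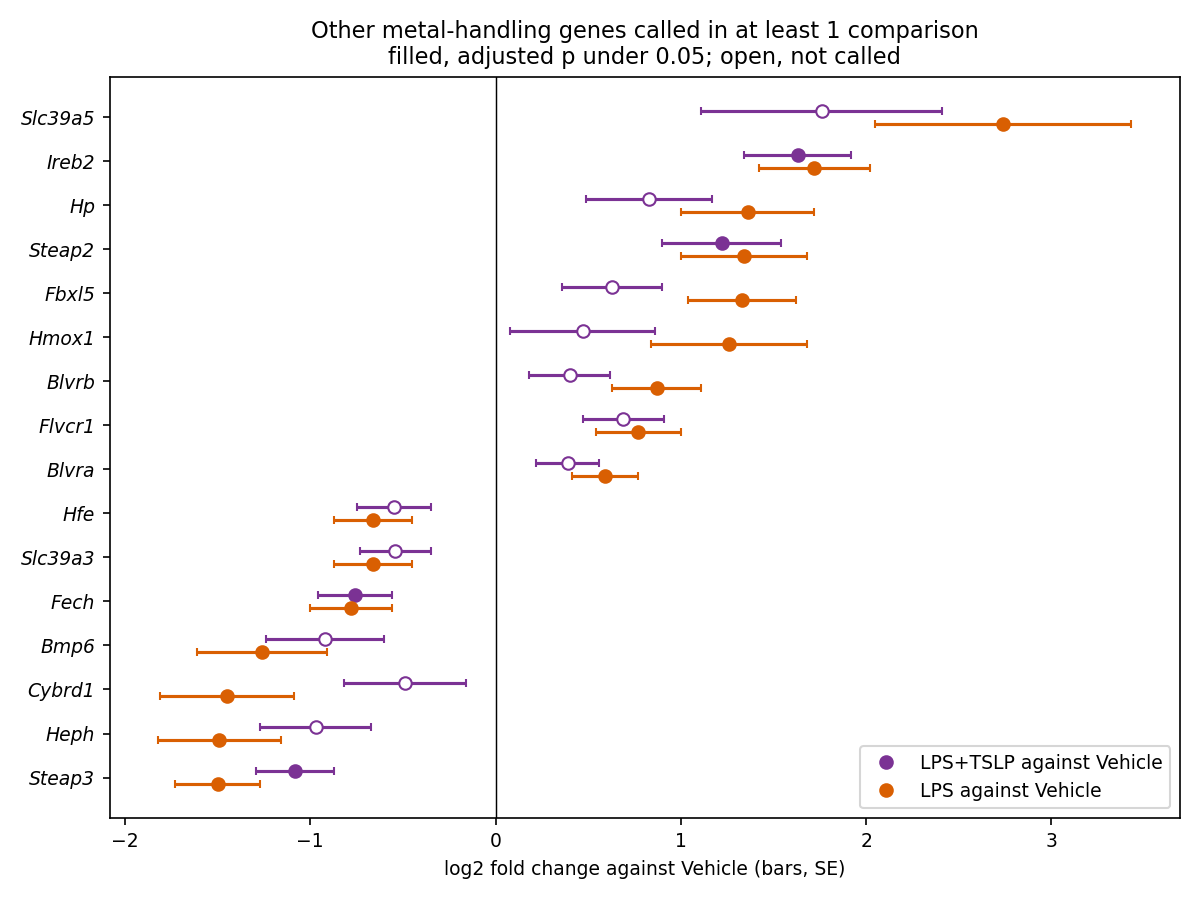
Log2 fold change against Vehicle, with SE bars, of the 16 further metal-handling genes called in at least 1 comparison, in LPS+TSLP (purple) and LPS (orange). Filled points are called at an edgeR adjusted p under 0.05; 16 are filled for LPS and 4 for LPS+TSLP (Ireb2, Steap2, Fech and Steap3), and both comparisons use the same 3 Vehicle libraries.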

How the data were processed

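Total RNA of lung tissue was sequenced on Illumina libraries, per the labels' protocols. The deposited values are unnormalised gene counts of 10 libraries; the tools named for them are HTSeq 0.6.0, HISAT2 and CASAVA, with build GRCm38/mm10, per the submitters' processing notes. Annotation release and strand setting are not given in the sources used here. Positions, biotypes and sequences came from GENCODE M21 and RefSeq, both of GRCm38, and 99.77% of table genes were found in GENCODE M21 by identifier. Counts were filtered by filterByExpr, scaled by TMM and tested with edgeR 4.0.16 quasi-likelihood in R 4.3.3, two-sided, in 1 fit of 3 groups with 7 residual degrees of freedom. Adjusted p is Benjamini-Hochberg over all 17139 genes tested. SE is the absolute log2 fold change over the root of F, and intervals are 95% from the fit. No 2 libraries of a group were copies: chi-square per degree of freedom was 33 or more in every pair. The tests were run on simulated data with known changes. The members, gene lists and alternatives were chosen with earlier results of these data known. Named genes were all 10 members, and from each wider list up to 4 others with the smallest adjusted p per comparison, of which those that bear on a group described are named. Alternatives included DESeq2 1.42.0, limma 3.58.1 (voom), other scalings and filters, a GC trend removed by loess (span 0.3) and fits without each library.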

Additional observations from a re-analysis of the deposited data

How the results depend on the processing

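Over 22 alternative settings, the values of Mt1, Slc11a1, Fth1 and Ftl1 in LPS against Vehicle stayed above 0, from 0.68 to 2.91, and lost their calls in 4, 3, 2 and 5 settings. Calls among the 10 genes, leaving out 1 library at a time, ran from 0 to 4 for LPS against Vehicle and from 0 to 2 for LPS+TSLP against Vehicle. Calls among the 55 wider genes ran from 5 to 23 and from 1 to 10, and over all genes from 1661 to 5424 and from 516 to 3493. LPS+TSLP against LPS gave 0 to 1 genes. Without Vehicle replicate 1 or 2 the LPS count over all genes fell to 1661 or 1836, and without LPS replicate 1 to 2522. The LPS+TSLP count against Vehicle fell to 516 and 521 without Vehicle replicates 1 and 2, and to 1038 and 1014 without LPS+TSLP replicates 2 and 3.

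With both LPS replicate 1 and LPS+TSLP replicate 1 left out, 2 of the 10 genes were called in each comparison with Vehicle. LPS+TSLP against Vehicle had 7 wider and 3842 genes in all, and LPS against Vehicle had 2377 genes higher and 1562 lower. Mt2 was then at 0.06 and Tfrc at 0.02 in LPS against Vehicle, and Ftl1 at 0.15 in LPS+TSLP against LPS. For LPS+TSLP against Vehicle the DESeq2 Wald test called 3 of the 10 genes, 12 wider and 3925 genes in all (35 in LPS+TSLP against LPS). There limma-voom called 2 of the 10, no filter 0 of the 10 and upper quartile factors 8 wider genes. Over all genes, limma-voom called 1256 higher and 1035 lower, no filter 1380 and 842, and upper quartile factors 1584 and 1103. With the GC trend removed 3 of the 10 were called there, of 1413 genes in all, and Tfrc was at −1.21. LPS against Vehicle then gave 0.15 for Mt2 and 0.03 for Slc30a1. The sign also changed for Tfrc in LPS+TSLP against Vehicle with library size alone (−0.01), for Slc30a1 and Tfrc in a fit of LPS and Vehicle alone (0 and 0), and for Mt2 in LPS against Vehicle with limma-voom (1.62, against −0.07 in the edgeR fit). Changes of sign without 1 library covered Mt2 (−0.65 to 0.44), Slc30a1 (−0.1 to 0.13), Slc11a2 (−0.02 to 0.27) and Tfrc (−0.19 to 0.14) in LPS against Vehicle, Slc40a1 (−0.61 to 0.11), Ftl1 (−0.19 to 0.14) and Tfrc (−0.11 to 0.16) in LPS+TSLP against LPS, and Slc39a14 (−0.85 to 0.32) and Tfrc (−0.15 to 0.18) in LPS+TSLP against Vehicle.

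The deviations of same-numbered libraries from their group means correlated between −0.34 and 0.4, and over 0.1 in 3 of 9 pairs, which was not treated as a pairing. A shared batch or day was not tested. With the replicate block, LPS+TSLP against Vehicle had 3 of the 10 genes called (Ftl1, Slc11a1 and Slc40a1) and 10 wider genes. Of all 17139 genes tested, 1862 were called higher and 1592 lower there. Mt2 was then at 0.19 in LPS against Vehicle. Ftl1 was at 0.04 and Tfrc at −0.12 in LPS+TSLP against LPS, and Tfrc was at −0.13 in LPS+TSLP against Vehicle. The cause of these differences was not tested. With 3 or 4 libraries a group, the intervals given show which sizes of change remain possible, and are not limits of detection.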
